A study of Arabidopsis thaliana with 48 samples.

Results

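The anthocyanin branch of flavonoid metabolism in Arabidopsis thaliana seedlings is described here from 10 genes, which were taken by their locus identifiers from a table of 32548 loci. They are the enzyme genes DFR (AT5G42800), LDOX (AT4G22880), UF3GT (AT5G54060), UGT75C1 (AT4G14090) and 5MAT (AT3G29590), the transport gene TT19 (AT5G17220), the activator genes PAP1 (AT1G56650), PAP2 (AT1G66390) and TT8 (AT4G09820), and the repressor gene MYBL2 (AT1G71030). All 10 had a row in each deposited table, and all 10 passed the filter on low values in each.

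RNA was sequenced from whole seedlings grown on MS plates at 23 °C by day and 22 °C by night, either in long days of 16 h light and 8 h dark for 11 days or in short days of 8 h light and 16 h dark for 14 days. The 48 libraries cover 9 genotypes. Wild type (Col-0) was the control. The mutants were labelled ino80(-/-), arp5(-/-), nfrkb1(-/-);nfrkb2(-/-);nfrkb3(-/-), uch1;uch2 and atx4;atx5;jmj24, written below as ino80, arp5, nfrkb1/2/3, uch1/2 and atx4/5;jmj24. The 3 transgenic lines all carry the ino80 mutation, with full-length INO80 (INO80FL), with residues 1 to 550 (INO80N) or with residues 335 to 1540 (INO80C). INO80 is an ATP-dependent chromatin remodeler, ARP5 and the NFRKB proteins are subunits of its complex, ATX4 and ATX5 are histone methyltransferases of the trithorax family, UCH1 and UCH2 are ubiquitin C-terminal hydrolases, and JMJ24 is a JmjC-domain protein. The labels give neither the promoter of the transgenes, nor the mutant alleles, nor the hour of harvest. Set 1 held 2 libraries of each genotype in each day length (36 libraries), and set 2 held 2 further short-day libraries of wild type, ino80, nfrkb1/2/3, uch1/2, atx4/5;jmj24 and INO80FL (12 libraries). The sets were normalized apart, so a level in one is set beside a level in the other without a test.

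Anthocyanins are red to purple vacuolar pigments made from the general flavonoid pathway. DFR and LDOX turn dihydroflavonols into coloured anthocyanidins, glycosyltransferases such as UF3GT and UGT75C1 add sugars, 5MAT adds a malonyl group, and the glutathione S-transferase TT19 is needed for the pigment to reach the vacuole. Transcription of these late genes in Arabidopsis is switched on by complexes of an R2R3-MYB protein (PAP1 or PAP2), a bHLH protein (TT8, GL3 or EGL3) and the WD40 protein TTG1, and MYBL2, a small MYB protein, represses it. Light raises the pathway in seedlings.

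Values are normalized read counts, in which 1 stands for about 1 read. Library totals of set 1 lay between 18867187 and 22653356, those of set 2 between 20080952 and 22921363, and replicate libraries correlated at 0.9941 to 0.9957 across genes, which are not independent replicates. Nothing in the labels says that the libraries of a group came from separate plant pools, so p-values measure the spread between these libraries only. INO80 read 783 to 1033 in the ino80 libraries of set 1 and 1579 to 2222 in wild type. ARP5 went against its label, at 5649 to 7936 in the libraries labelled arp5 and 293 to 355 in wild type, and "arp5" below names these libraries only.

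The promoters were read to show which letters the late genes and the PAP genes share. Each sequence below is the 250 bases before the annotated gene start in TAIR10.1 (RefSeq), 5′ to 3′ on the gene's strand, and capitals mark CACGTG (the G-box, read by bHLH and bZIP factors) and ANCNNCC (a MYB-recognizing element) on either strand. DFR (chr5:17166033-17166282, minus strand), LDOX (chr4:12006210-12006459, minus strand) and UF3GT (chr5:21938397-21938646, minus strand) represent the late genes, and PAP1 (chr1:21235293-21235542, minus strand) and PAP2 (chr1:24763691-24763940, plus strand) are the pair of related MYB genes whose levels parted in the mutants.
DFR: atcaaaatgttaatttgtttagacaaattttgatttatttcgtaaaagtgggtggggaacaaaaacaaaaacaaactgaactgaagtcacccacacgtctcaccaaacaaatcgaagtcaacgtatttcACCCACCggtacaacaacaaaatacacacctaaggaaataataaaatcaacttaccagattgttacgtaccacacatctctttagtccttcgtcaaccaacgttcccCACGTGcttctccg
LDOX: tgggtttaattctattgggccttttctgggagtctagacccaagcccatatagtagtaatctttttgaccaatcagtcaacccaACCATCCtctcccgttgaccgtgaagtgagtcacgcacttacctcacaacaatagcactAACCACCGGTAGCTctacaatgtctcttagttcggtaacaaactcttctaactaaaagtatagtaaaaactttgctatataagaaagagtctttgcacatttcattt
UF3GT: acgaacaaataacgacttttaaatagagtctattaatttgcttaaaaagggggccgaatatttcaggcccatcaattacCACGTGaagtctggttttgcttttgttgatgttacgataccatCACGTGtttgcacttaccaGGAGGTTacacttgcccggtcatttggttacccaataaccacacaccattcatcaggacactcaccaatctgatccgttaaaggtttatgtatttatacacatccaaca
PAP1: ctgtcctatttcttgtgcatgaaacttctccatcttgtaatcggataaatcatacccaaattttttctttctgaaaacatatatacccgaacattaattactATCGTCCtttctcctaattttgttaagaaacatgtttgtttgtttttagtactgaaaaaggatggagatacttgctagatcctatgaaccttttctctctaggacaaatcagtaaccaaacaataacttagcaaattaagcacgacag
PAP2: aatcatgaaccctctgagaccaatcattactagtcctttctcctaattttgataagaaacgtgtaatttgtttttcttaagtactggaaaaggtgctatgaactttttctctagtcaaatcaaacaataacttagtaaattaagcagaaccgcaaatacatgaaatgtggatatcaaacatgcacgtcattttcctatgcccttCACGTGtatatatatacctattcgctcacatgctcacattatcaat
ANCNNCC occurred in this window in all 6 enzyme and transport genes and in 9 of the 10 members, PAP2 being the exception, against 48.81% of 27443 protein-coding genes. CACGTG occurred in 3 members, DFR (at -14 from the gene start), UF3GT (at 2 places) and PAP2 (at -46), against 6.486% of those genes. The looser E-box CANNTG, which contains CACGTG, occurred in 6 members against 55.318%, and the W-box TTGAC in 7 against 44.926%. A match of letters is a description of the sequence, not a binding site.

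Within set 1, the widest differences lay between the long-day and the short-day libraries, which differ in age as well. In wild type of set 1, DFR read 952 and 1285 in long days and 4.21 and 7.43 in short days, and LDOX read 595 and 826 against 9.36 and 5.41. UF3GT fell from 179 and 257 to 0.006 and 1.06, which is 1 read or none. The long-day libraries lay far above the short-day libraries at each of these genes, with no overlap.

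TT19 read 337 and 461 in long days against 6.29 and 8.51 in short days, and 5MAT read 224 and 287 against 3.14 and 3.21. UGT75C1, the 5-O-glucosyltransferase gene, kept a higher short-day level, at 296 and 418 against 55.5 and 76.6. On the log2(value + 1) scale the short-day minus long-day difference was -7.38 (SE 0.61, adjusted p = 1.76e-09) at DFR, -6.43 at LDOX, -7.23 at UF3GT, -5.93 at 5MAT, -5.57 at TT19 and -2.41 (SE 0.45, adjusted p = 0.000168) at UGT75C1, all past the threshold of an adjusted p of 0.05 in limma's test (SE, standard error; p adjusted by Benjamini and Hochberg over all genes). Per kb of transcript, DFR was the most abundant late gene of wild type in long days, at 735.7, followed by LDOX at 507.4, TT19 at 364.2, UGT75C1 at 216.5, 5MAT at 146.6 and UF3GT at 132. In short days UGT75C1 led at 40.08 per kb, and the other late genes stood between 0.322 and 6.752.

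Of the activators, TT8 read 42.1 and 62.2 in long days and 4.25 and 11.6 in short days, a difference of -2.68 (SE 0.38, adjusted p = 5.77e-06). PAP2 read 18.5 and 11.1 against 2.11 and 4.24, a difference of -1.93 (SE 0.43, adjusted p = 0.00105) between values of a few reads. PAP1 read 68.6 and 96.1 against 39.7 and 45.8, and its difference of -0.91 (SE 0.36, adjusted p = 0.0522) did not pass. The repressor MYBL2 read 2017 and 1676 in long days and 2282 and 2071 in short days, and its difference of 0.24 (SE 0.20, adjusted p = 0.375) did not pass. The value of TT8 rested on its spread in short days, with -2.05 and -3.31 after removal of the first and of the second short-day wild-type library, respectively.

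**Figure D1:**
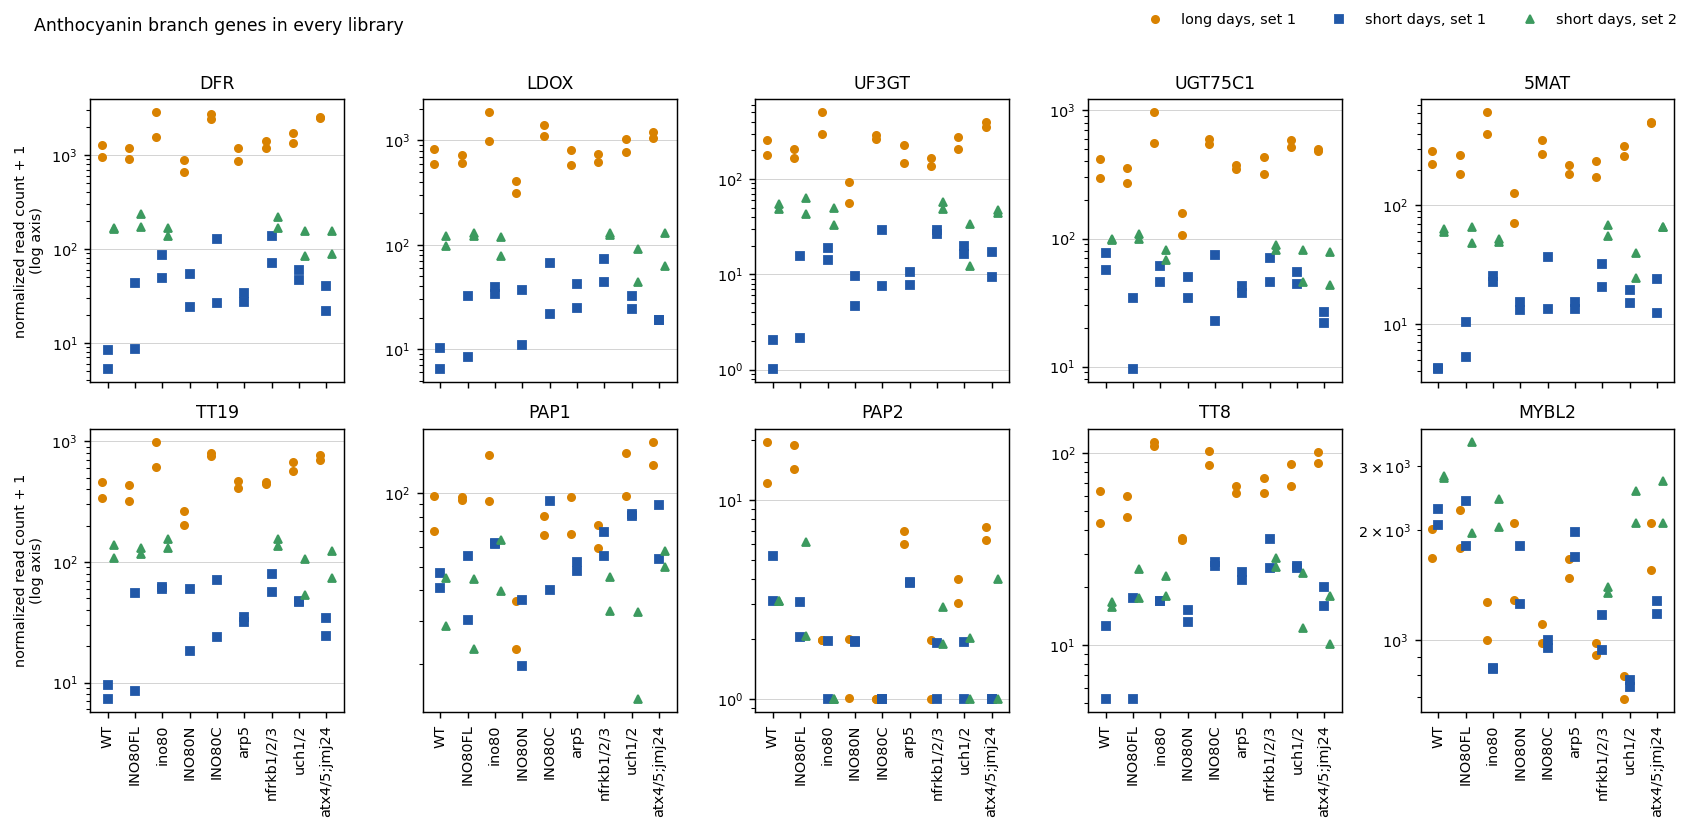
Normalized read count plus 1 (log axis) of each gene in each library, by genotype on the horizontal axis; orange circles are long days, blue squares short days of set 1 and green triangles short days of set 2. For the 6 enzyme and transport genes every long-day library of a genotype lies above its short-day libraries, with DFR of wild type at 952 and 1285 in long days and 4.21 and 7.43 in short days of set 1.

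The fall in short days held in every genotype for the late genes and TT8. In wild type 8 of the 10 members fell and none rose, beside 37.6% of all genes called in either direction in that comparison. The members called were 7 in ino80 (background 32.8%), 7 in arp5 (34.1%), 7 in nfrkb1/2/3 (34.5%), 8 in uch1/2 (30.8%), 10 in atx4/5;jmj24 (33.4%), 9 in INO80FL (32.2%), 7 in INO80N (34.9%) and 7 in INO80C (33.5%), and all of them were lower in short days. The 6 enzyme and transport genes and TT8 were called in all 9 genotypes, and at each of these 7 genes the long-day libraries lay above the short-day libraries in 9 of 9 genotypes. The same held in all 9 for 9.44% of the 25638 genes tested, and in single genotypes for 31.2% to 36.1%.

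The size differed between genotypes. At DFR the difference ran from -7.38 in wild type to -3.72 in nfrkb1/2/3, and at UF3GT from -7.23 to -2.44 in the same lines. PAP2 was called lower in wild type, uch1/2, atx4/5;jmj24 and INO80FL, and in arp5 its difference was -0.75 without a call. PAP1 was called lower in atx4/5;jmj24 (-1.07 (SE 0.36, adjusted p = 0.0256)) and INO80FL (-1.22 (SE 0.36, adjusted p = 0.012)), and MYBL2 in atx4/5;jmj24 (-0.56 (SE 0.20, adjusted p = 0.0325)).

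Several of these calls rested on single libraries. PAP1 in atx4/5;jmj24 was at -0.92 without the first long-day library of that line and at -0.71 without its first short-day library, and PAP1 in INO80FL at -1.19 and -0.79 without the second long-day or first short-day library, with the call lost each time. MYBL2 in atx4/5;jmj24 lost its call without the second long-day library (-0.34) or either short-day library (-0.5 and -0.62). PAP2 in uch1/2 lost it without the second long-day (-1.14) or first short-day library (-0.86). TT8 lost it in nfrkb1/2/3 without the first long-day (-1.04) or first short-day library (-0.92), and in INO80N without the first short-day library (-1.22). UGT75C1 lost it in INO80N without the second long-day (-1.36) or first short-day library (-1.38). The size, though not the call, of other differences moved with 1 short-day library, as at DFR in INO80FL (-4.57 and -6.92 without the first or second) and in INO80C (-4.34 and -6.59), and at LDOX in INO80N (-3.29 and -5.03).

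**Figure D2:**
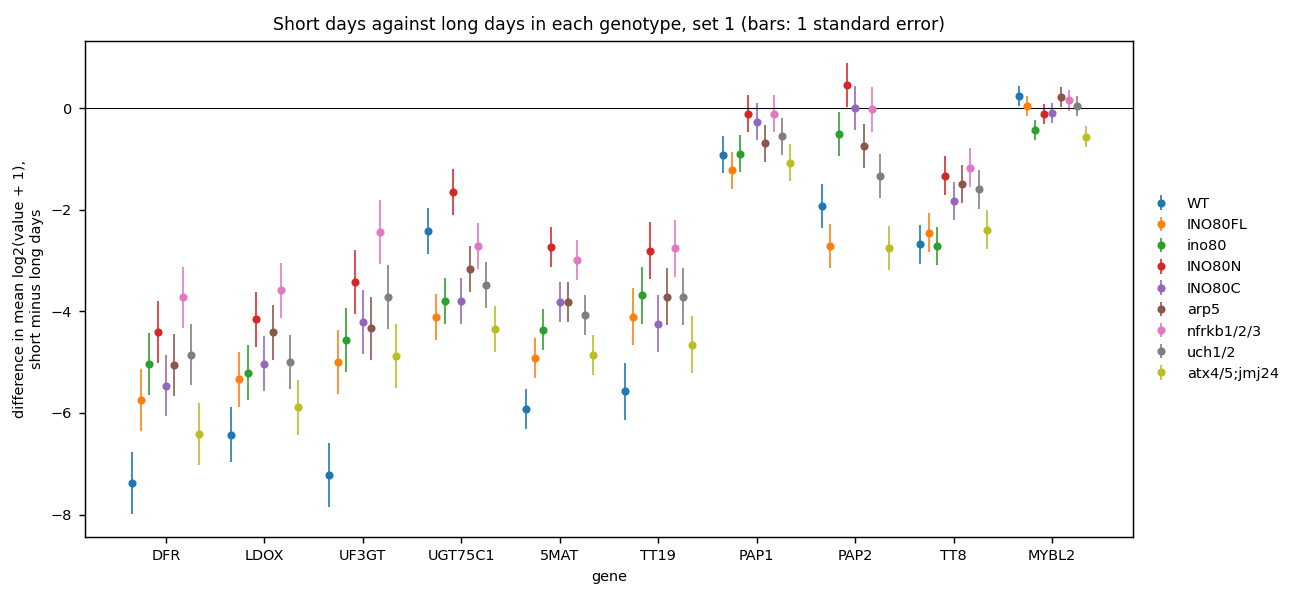
Short-day minus long-day difference in mean log2(value + 1) of each gene in each of the 9 genotypes of set 1, with bars of 1 standard error and a line at 0. The late genes lie below 0 in every genotype, with DFR from -7.38 in wild type to -3.72 in nfrkb1/2/3, while MYBL2 lies between -0.56 and 0.24.

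Age (11 against 14 days) differs together with day length and cannot be told apart from it. The clock genes, which were looked at after their values were seen, also moved. The morning gene CCA1 read 2556 and 2127 in wild type in long days, 17298 and 17229.6 in short days of set 1 and 53.3 and 34.9 in set 2. The evening gene TOC1 read 392 and 443, 332 and 242 and 5493 and 5996 in the same order. The part of harvest time in the day-length differences was not tested.

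Levels in short days differed between the sets. In set 2, wild type read 161 and 167 at DFR, 119 and 97 at LDOX, 53.4 and 47.5 at UF3GT and 106 and 137 at TT19. These short-day levels lie between those of the short-day and the long-day wild-type libraries of set 1. MYBL2, at 2775 and 2819, and PAP2, at 2.1 and 2.11, were nearer to their set 1 values.

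The mutant lines were then compared with wild type in short days of set 1, where the late genes of wild type were lowest. DFR read 84.3 and 47.4 in ino80, 69.5 and 137 in nfrkb1/2/3, 58 and 45.5 in uch1/2, 20.6 and 39.3 in atx4/5;jmj24 and 26.4 and 32.8 in arp5, against 4.21 and 7.43 in wild type. It read 25.4 and 125 in INO80C, 23 and 52.7 in INO80N and 7.53 and 42.4 in INO80FL. All 16 line libraries lay above both wild-type libraries, the full-length line included, whose libraries stood far apart from each other. The lower INO80FL library, at 7.53, barely exceeded the upper wild-type one, at 7.43. The same wild-type pair serves every line, and the share of all genes with such a gap was not counted. The difference from wild type was 3.89 (SE 0.61, adjusted p = 3.08e-05) in nfrkb1/2/3, 3.28 (SE 0.61, adjusted p = 0.000178) in ino80, 2.2 (SE 0.61, adjusted p = 0.0148) in arp5 and 1.54 (SE 0.61, adjusted p = 0.488) in INO80FL, the last not past the test.

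UF3GT read 13.1 and 17.9 in ino80, 25.2 and 28.1 in nfrkb1/2/3 and 18.7 and 15.5 in uch1/2, against 0.006 and 1.06 in wild type. Its differences, 3.51, 4.26 and 3.65, start from a wild-type level of about 1 read, so their size depends on the added 1. 5MAT, which read 3.14 and 3.21 in wild type, reached 24.5 and 21.5 in ino80 (2.52 (SE 0.40, adjusted p = 2.88e-05)). 5MAT, UF3GT, DFR and TT19 were called higher in 7 of the 8 lines, all but INO80FL. LDOX, at 42.7 and 72.9 in nfrkb1/2/3 against 9.36 and 5.41, was called in 5, without atx4/5;jmj24 (1.22), INO80N (1.3) and INO80FL (1.02). TT8 was called higher in 6 lines, with differences up to 1.88 (SE 0.38, adjusted p = 0.000535) in nfrkb1/2/3.

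UGT75C1 did not follow the other late genes. Its difference from wild type was below 0 in all 8 lines. It ran from -0.23 in nfrkb1/2/3 to -1.88 in INO80FL (8.51 and 33.1), both without a call. It read 60.5 and 44.8 in ino80 and 44.6 and 69.2 in nfrkb1/2/3 against 55.5 and 76.6 in wild type, and was called in 1 line, lower in atx4/5;jmj24 (25.6 and 20.9; -1.46 (SE 0.45, adjusted p = 0.0191)). Across the 9 short-day genotype means of set 1, its log2 level had a correlation of 0.0928 with the mean of the other late genes, against 0.9297 to 0.9836 for those genes, as a description over points that share libraries. At 27.12% of its exon length UGT75C1 is overlapped by AT4G14100 and a noncoding gene on the opposite strand, and the strand setting of the counting is not given in the sources used here, so reads of the partners cannot be told apart. AT4G14100 read 279 and 270.0 in long days and 356 and 358 in short days of set 1 in wild type. TT19 shares 9.85% of its exon length with PSY.

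Over all members, 8 of 10 were called in ino80 (6 higher, 2 lower; background 35.1%), 8 in nfrkb1/2/3 (background 31.8%), 8 in uch1/2 (38.7%) and 8 in INO80C (33.9%), each with 6 higher and 2 lower. In atx4/5;jmj24, 8 were called, 5 higher and 3 lower (background 27.2%). In arp5, 6 were called, all higher (16.2%), in INO80N 4, all higher (24.3%), and in INO80FL none by limma (0.129%), where 4 had an unadjusted p under 0.05. The 8 comparisons share the same 2 wild-type libraries, so they are not independent of each other.

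Leaving out the first short-day wild-type library of set 1, in which TT8 was at 4.25, ended the call of TT8 in ino80 (0.43), arp5 (0.86), uch1/2 (1.01), atx4/5;jmj24 (0.51) and INO80C (1.07), and left nfrkb1/2/3 at 1.24, still called. It also ended the calls of DFR in arp5 (1.85), atx4/5;jmj24 (1.81) and INO80N (2.09), of TT19 in arp5 (1.81), atx4/5;jmj24 (1.61) and INO80N (1.8), and of UF3GT in arp5 (2.13) and INO80N (1.71). Without the second wild-type library, LDOX lost its call in arp5 (1.64) and uch1/2 (1.43), TT19 in arp5 (2.2) and atx4/5;jmj24 (2.0), and UGT75C1 in atx4/5;jmj24 (-1.23). The difference of TT8 was then between 1.69 in ino80 and 2.51 in nfrkb1/2/3. In nfrkb1/2/3, DFR, LDOX, UF3GT, 5MAT, TT19 and TT8 kept their calls whichever library of that comparison was left out.

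Single libraries of the lines mattered as well. INO80C rested on its second library, the higher one, without which DFR was at 2.0, UF3GT at 2.4 and 5MAT at 1.68, still called, whereas LDOX (1.43) and TT19 (1.51) were not; without its first library DFR was at 4.25. INO80N without its second library had DFR at 1.86, TT19 at 1.14 and UF3GT at 1.7, all uncalled, and TT19 at 2.84 without its first. INO80FL gained calls of TT19 (2.72) and UF3GT (3.43) without its first library and of UGT75C1 (-2.8) without its second. In arp5, leaving out the first or second library ended the call of DFR (2.35 and 2.05) and TT19 (1.93 and 2.08), the first alone that of LDOX (1.61) and UF3GT (2.42), and the second alone that of TT8 (1.42). In atx4/5;jmj24, leaving out the second library ended the calls of DFR (1.7) and TT19 (1.56), and removal of either one ended those of TT8 (1.3 and 0.98) and UGT75C1 (-1.6 and -1.32). TT8 in ino80 lost its call without either ino80 library (1.06 each time), and LDOX in uch1/2 without the second uch1/2 library (1.57). With short-day libraries fitted apart, TT8 in ino80 (adjusted p = 0.0857) and atx4/5;jmj24 (0.0769) and TT19 in arp5 (0.0511) and atx4/5;jmj24 (0.056) were not called.

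**Figure D3:**
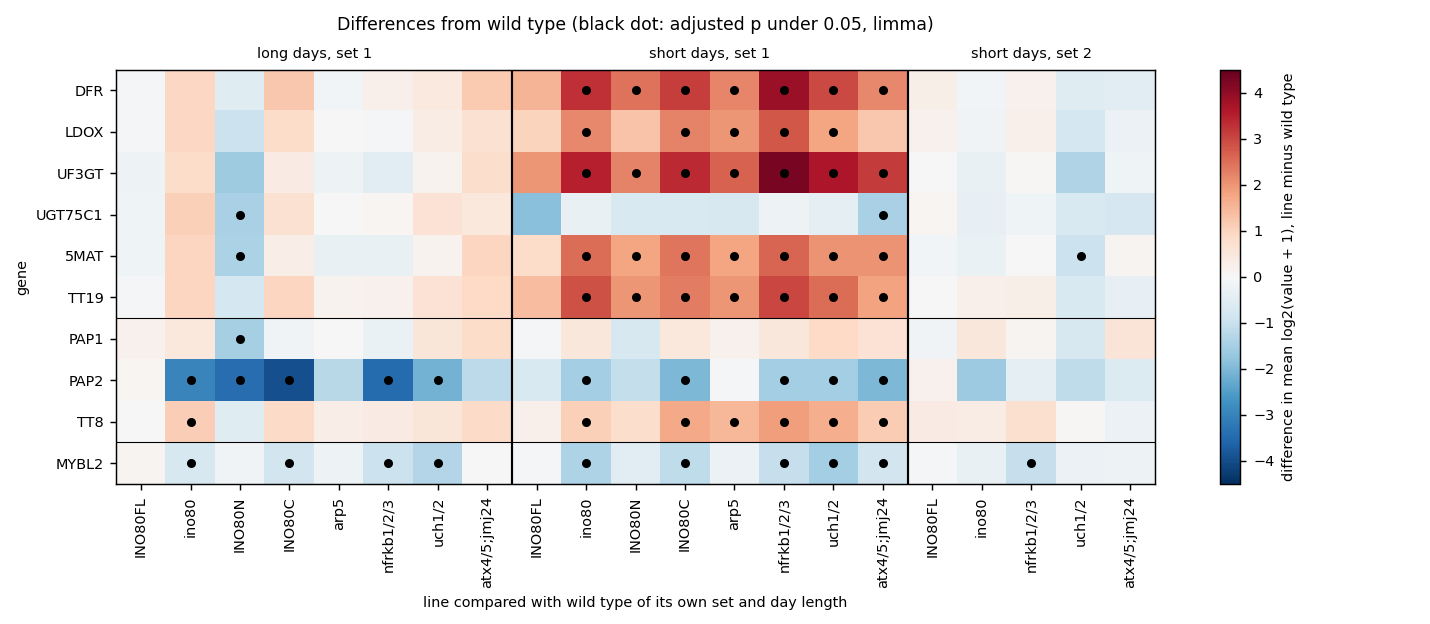
Difference in mean log2(value + 1) between each line and the wild-type libraries of its own set and day length (colour scale, red higher and blue lower), with a black dot where limma's adjusted p was under 0.05. In short days of set 1 the late genes other than UGT75C1 are higher in the mutant lines, by up to 4.26 at UF3GT in nfrkb1/2/3, whereas in set 2 the calls are 5MAT in uch1/2 and MYBL2 in nfrkb1/2/3, both lower.

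The higher short-day levels of DFR, LDOX, UF3GT, 5MAT and TT19 in the lines were not seen again in set 2. There DFR read 161 and 167 in wild type, 168 and 135 in ino80, 165 and 219.8 in nfrkb1/2/3, 154 and 82.7 in uch1/2, 154 and 86.4 in atx4/5;jmj24 and 169.6 and 232 in INO80FL. The mutant libraries lay on either side of the wild-type pair, and ino80 differed by -0.13 (SE 0.33, adjusted p = 0.852). No member was called in ino80 by limma (background 14%; 1 member had an unadjusted p under 0.05), in atx4/5;jmj24 (4.08%; 1 unadjusted) or in INO80FL (0.0532%; 0 unadjusted). The nfrkb1/2/3 lines had 1 call, MYBL2 (28.2%), and uch1/2 had 1, 5MAT (14.5%), lower at 38.3 and 23.5 against 61.8 and 59 (-0.98 (SE 0.25, adjusted p = 0.0277)). The call of 5MAT ended without either wild-type library (-0.95 and -1.02) or without the second uch1/2 library (-0.64). TT8 lay above both wild-type libraries in 3 of the 5 lines, as in nfrkb1/2/3 at 27.6 and 24.5 against 15.7 and 14.8. UGT75C1 lay below both in 4 of the 5 lines and above both in 1. Neither gene was called in any line of set 2.

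Other values moved with the lines in short days of set 1. CCA1 read 8813 and 8758 in ino80 against 17298 and 17229.6 in wild type, and over all 18 short-day libraries it ranged from 7515 to 17298. The summed level of 4 floral organ genes (AP1, PI, AP3 and SEP3) was 32.16 to 39.6 in wild type, 50.11 to 79.09 in INO80FL, 245.2 to 294.6 in ino80 and 175.9 to 202.3 in nfrkb1/2/3, where 1 of the 4 stood at 1 read or less in every library of the last group. The sum of 4 maturing-seed genes (CRA1, CRU3, OLEO1 and SESA4) was 5.23 to 6.4 in wild type, 4.94 to 1304 in ino80 and 1470 to 4321 in atx4/5;jmj24. It was 3.72 to 6.38 in nfrkb1/2/3 and 12.19 to 125 in uch1/2. The sum of 4 green-tissue genes (RBCS1A, RBCS3B, LHCB1.3 and CAB3) was 840644 to 892093 in wild type, 665652 to 706266 in ino80 and 572186 to 659229 in nfrkb1/2/3. The part of harvest time and of floral, seed and green-tissue transcripts in the differences was not tested, and in whole seedlings a change in the number of pigmented cells and a change in RNA per cell cannot be told apart.

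In long days DFR was higher in some mutants than in wild type without a call, and few members passed the test. DFR read 1560.0 and 2848 in ino80, 2411 and 2701 in INO80C, 2489 and 2528 in atx4/5;jmj24 and 1707 and 1336 in uch1/2, against 952 and 1285 in wild type, with no overlap. The differences were 0.93 (SE 0.61, adjusted p = 0.278), 1.21 (SE 0.61, adjusted p = 0.153), 1.18 (SE 0.61, adjusted p = 0.224) and 0.45 (SE 0.61, adjusted p = 0.639), in that order. DFR read 1416 and 1195 in nfrkb1/2/3, 862 and 1179 in arp5 and 902 and 1184 in INO80FL, all overlapping wild type.

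The members called against wild type in long days were 3 in ino80 (1 higher, 2 lower; background 28.6%), 2 in nfrkb1/2/3 (25.5%), 2 in uch1/2 (28.5%), 2 in INO80C (26.9%) and 4 in INO80N (24.8%), the last 4 comparisons with lower calls only. In arp5 none was called by limma (9.9%; 1 had an unadjusted p under 0.05), in atx4/5;jmj24 none (13.3%; 4 unadjusted) and in INO80FL none (0.121%; 0 unadjusted). These counts depended on which libraries estimated the spread: with the long-day libraries fitted apart from the short-day ones, 9 members were called in ino80, 4 in atx4/5;jmj24, 7 in INO80N and 6 in INO80C, and DFR was among them in ino80 (adjusted p = 0.0155), INO80C (0.00388) and atx4/5;jmj24 (0.00935). The higher call in ino80 was TT8, at 108 and 113 against 42.1 and 62.2 (1.09 (SE 0.38, adjusted p = 0.0342)), and it ended without the first wild-type library (0.82) or either ino80 library (1.13 and 1.06).

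PAP2 and MYBL2 had the most calls against wild type in long days. PAP2 read 18.5 and 11.1 in wild type and 13.3 and 17.8 in INO80FL in long days, against 0.987 and 0.981 in ino80, 0.985 and 0 in nfrkb1/2/3, 0.009 and 1 in INO80N, 0 and 0 in INO80C and 2.05 and 3.02 in uch1/2. It read 5.98 and 5.04 in arp5 and 6.31 and 5.27 in atx4/5;jmj24. The first 2 groups lay above all others, and the ino80, INO80N, INO80C and nfrkb1/2/3 libraries held no more than 1 read each. PAP2 was called lower in ino80 (-2.96 (SE 0.43, adjusted p = 1.66e-05)), nfrkb1/2/3 (-3.45 (SE 0.43, adjusted p = 2.99e-06)), uch1/2 (-2.14 (SE 0.43, adjusted p = 0.000635)), INO80N (-3.44 (SE 0.43, adjusted p = 2.60e-06)) and INO80C (-3.94 (SE 0.43, adjusted p = 4.79e-07)), and these 5 calls held whichever library of the comparison was left out.

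At this depth a fold cannot be given for PAP2, because values of a few reads carry large counting error. In short days of set 1 wild type read 2.11 and 4.24 and most lines 0 to 1 read, and 5 lower calls were made (ino80, nfrkb1/2/3, uch1/2, atx4/5;jmj24 and INO80C). The calls in ino80, nfrkb1/2/3 and uch1/2 were lost on removal of wild-type library 2 (-1.16, -1.17 and -1.16) or the line's first library (-1.05, -1.07 and -1.07). In set 2, ino80 read 0 and 0 against 2.1 and 2.11 (-1.63 (SE 0.72, adjusted p = 0.172)). Of the 50-base windows of the PAP2 transcript, 4.444% occur elsewhere in the genome, and none of the PAP1 windows do.

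PAP1, the close relative of PAP2, did not share this pattern. It read 91.8 and 143 in ino80, 79.4 and 66.1 in INO80C and 72.7 and 58.7 in nfrkb1/2/3 against 68.6 and 96.1 in wild type in long days, with overlapping libraries. In uch1/2 (96.4 and 145) and atx4/5;jmj24 (161 and 129) both libraries lay above wild type, without a call. It was called in 1 line only, lower in INO80N at 35.1 and 22.1 (-1.51 (SE 0.36, adjusted p = 0.00327)), and removing the second wild-type library (-1.27) or the second INO80N library (-1.19) ended that call. In short days of set 1 PAP1 read 79.3 and 81.4 in uch1/2, 52.6 and 88 in atx4/5;jmj24, 61.3 and 60.9 in ino80, 54.1 and 68.1 in nfrkb1/2/3 and 51.2 and 47.1 in arp5, all above the 39.7 and 45.8 of wild type. INO80N, at 18.5 and 35.4, lay below both wild-type libraries. The libraries of INO80FL (29.3 and 54.1) and INO80C (39.1 and 91.5) lay on either side of them. None of the 8 lines was called by limma there, where 1 had an unadjusted p under 0.05, uch1/2 at 0.9 (SE 0.36, adjusted p = 0.055). PAP1 in uch1/2 passed with the filter at 10 (adjusted p = 0.0414), equal library totals (0.0189) and the replicate block (0.0347), and its adjusted p over all alternatives ran from 0.0189 to 0.197. In set 2 none of the 5 lines was called, with 0 at an unadjusted p under 0.05.

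MYBL2, the repressor, was abundant in every library, at 1392 per kb in wild type in long days. It read 688 and 797 in uch1/2, 911 and 978 in nfrkb1/2/3, 1107 and 983 in INO80C and 1269.9 and 999 in ino80 in long days, against 2017 and 1676 in wild type. The libraries of these 4 lines lay below wild type, as did those of arp5 (1477 and 1666; -0.23 (SE 0.20, adjusted p = 0.544)) without a call, and those of INO80FL (2274 and 1785), INO80N (2094 and 1284) and atx4/5;jmj24 (1556 and 2098) reached it. The differences were -1.31 (SE 0.20, adjusted p = 2.70e-05), -0.96 (SE 0.20, adjusted p = 0.000793), -0.82 (SE 0.20, adjusted p = 0.00337) and -0.71 (SE 0.20, adjusted p = 0.00925). Of these calls, that in ino80 ended without the first wild-type library (-0.57) or the second ino80 library (-0.53), and that in INO80C without the first wild-type library (-0.68).

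In short days of set 1, MYBL2 read 836 and 829.6 in ino80, 777 and 744 in uch1/2, 951 and 998 in INO80C and 1174 and 936 in nfrkb1/2/3, against 2282 and 2071 in wild type. These lines were far below wild type, by -1.38, -1.51, -1.16 and -1.05 on the log2 scale, and atx4/5;jmj24 was lower as well (-0.83 (SE 0.20, adjusted p = 0.00325)). The 5 calls held whichever library of the comparison was left out. Both libraries of INO80N (1816 and 1253, -0.53) and of arp5 (1690 and 1984, -0.25) also lay below wild type, without a call. INO80N passed with short-day libraries fitted apart (adjusted p = 0.017), the filter at 10 (0.0435) and the replicate block (0.0466). Its adjusted p over all alternatives ran from 0.017 to 0.486. In set 2 MYBL2 was called lower in nfrkb1/2/3, at 1348 and 1399 against 2775 and 2819 (-1.03 (SE 0.23, adjusted p = 0.00928)), a call that ended without the first nfrkb1/2/3 library of set 2 (-1.0). In ino80 of set 2 it read 2434 and 2048 (-0.32 (SE 0.23, adjusted p = 0.403)), below both wild-type libraries but not past the test. The set 2 libraries of uch1/2 (2571 and 2096) and atx4/5;jmj24 (2096 and 2728) also lay below both, without a call. Those of INO80FL (3492 and 1969) lay on either side.

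**Figure D4:**
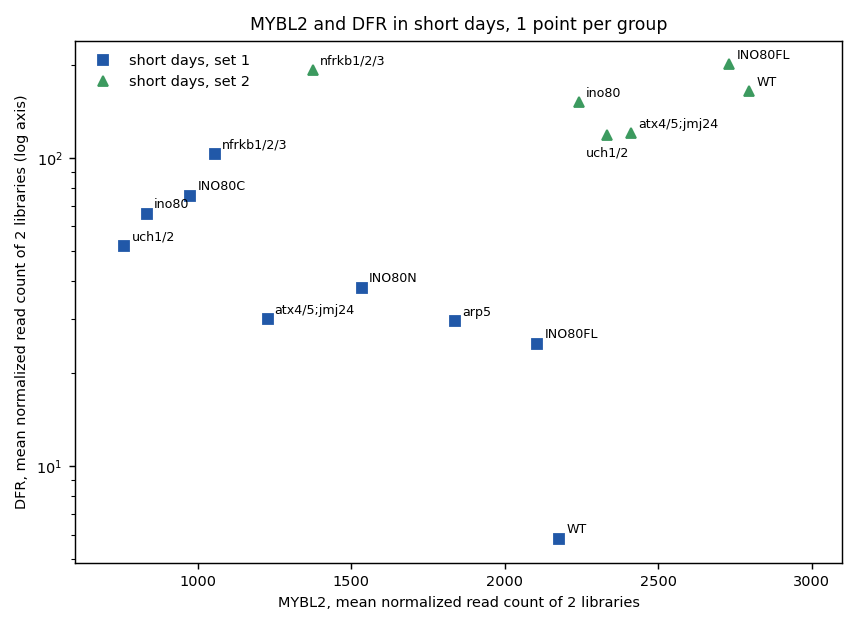
Mean normalized read count of MYBL2 (linear axis) and DFR (log axis) in each short-day group, with blue squares for set 1 and green triangles for set 2. In set 1 wild type combines the lowest DFR mean with the highest MYBL2 mean, while in set 2 nfrkb1/2/3 has the lowest MYBL2 mean and DFR libraries at 165 and 219.8, with those of wild type at 161 and 167.

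Over the 9 short-day genotypes of set 1, the log2 mean of MYBL2 correlated with the mean of the 6 late genes at -0.826, and over the 9 long-day genotypes at -0.3386. Over the 6 genotypes of set 2 the value was -0.1877. These are descriptions over groups of the same plants and libraries. In the plot of MYBL2 against DFR the set 1 groups run from upper left to lower right, and the set 2 groups do not.

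The transgenic lines were compared with ino80 to see which levels the full-length or partial INO80 changed. In long days INO80FL had 5 members called against ino80 (3 lower, 2 higher; background 30.8%). PAP2 rose from 0.987 and 0.981 to 13.3 and 17.8 (3.05 (SE 0.43, adjusted p = 1.09e-05)) and MYBL2 from 1269.9 and 999 to 2274 and 1785 (0.84 (SE 0.20, adjusted p = 0.00224)). 5MAT (-1.15), UGT75C1 (-1.24) and TT8 (-1.08) fell.

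Of these, PAP2 held whichever library was left out. MYBL2 and 5MAT lost their calls without the first INO80FL library (0.66 and -0.88) or the second ino80 library (0.67 and -0.84). UGT75C1 lost it without either INO80FL library (-1.04 and -1.43) or the second ino80 library (-0.84), and TT8 without any single one of the 4 (-1.26 to -0.9).

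In short days of set 1, 4 members were called (background 27.2%), MYBL2 higher (1.32 (SE 0.20, adjusted p = 2.56e-05)) and DFR (-1.74 (SE 0.61, adjusted p = 0.0349)), 5MAT (-1.71) and UGT75C1 (-1.56) lower. The 2 INO80FL libraries differed widely here, with DFR at 7.53 and 42.4, and without the first one DFR (-0.56), 5MAT (-1.21) and UGT75C1 (-0.64) were no longer called, while without the second DFR was at -2.91 and UGT75C1 at -2.48. Leaving out the first ino80 library ended the calls of DFR (-1.33) and UGT75C1 (-1.35). With short-day libraries fitted apart DFR had an adjusted p of 0.082 and was not called. In set 2 no member was called by limma between INO80FL and ino80 (10.9%; 1 had an unadjusted p under 0.05).

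The N-terminal line had the lowest mean of the 9 genotypes in long days at each of the 6 enzyme and transport genes. DFR read 657 and 879 in INO80N, against 1560.0 and 2848 in ino80, 2411 and 2701 in INO80C and 952 and 1285 in wild type. UF3GT read 55 and 91.2, against 297 and 499 in ino80 and 265 and 287 in INO80C. UGT75C1 read 105 and 157, against 559 and 966 and 549 and 597. At all 3 genes both INO80N libraries lay below every wild-type, ino80 and INO80C library of long days. The share of all genes with this order was not counted.

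Against ino80, 8 members were called in INO80N (background 25.6%), 7 lower and MYBL2 higher (0.54 (SE 0.20, adjusted p = 0.0477), and 0.0782 with long-day libraries fitted apart). The lower ones were UGT75C1 (-2.5 (SE 0.45, adjusted p = 0.000245)), UF3GT (-2.43), 5MAT (-2.38 (SE 0.40, adjusted p = 9.85e-05)), PAP1 (-2.0 (SE 0.36, adjusted p = 0.000259)), LDOX (-1.92), TT19 (-1.76) and TT8 (-1.64), and DFR was at -1.47 without a call. UGT75C1, 5MAT, PAP1 and TT8 held whichever library was left out. Without the second ino80 library or the first INO80N library, MYBL2 (0.37 and 0.19), LDOX (-1.46 and -1.71), TT19 (-1.42 and -1.57) and UF3GT (-2.05 and -2.07) did not pass, nor did TT19 without the second INO80N library (-1.94).

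INO80C and ino80 were not told apart at the 10 members. No member was called between them by limma in long days (20.8%; 1 had an unadjusted p under 0.05) or in short days (6.46%; 0 unadjusted). INO80N against INO80C in long days gave 9 calls (background 19.1%), 8 lower and MYBL2 higher (0.65 (SE 0.20, adjusted p = 0.0233)), from -1.35 at PAP1 to -2.14 (SE 0.45, adjusted p = 0.00166) at UGT75C1. With any single library left out only 2 to 3 of the 9 remained called, among which UGT75C1 held in each case. DFR, LDOX, TT19 and UF3GT lost their calls with any of the 4 libraries left out, at -1.54 to -1.96 for DFR. TT8 lost it without either INO80N library (-1.38 and -1.41) or the second INO80C library (-1.28), 5MAT without the first INO80N library (-1.3), PAP1 without the second INO80N (-1.02) or first INO80C library (-1.22), and MYBL2 without the first INO80N library (0.3) or either INO80C library (0.74 and 0.57). Against wild type in long days INO80N had 5MAT (-1.42 (SE 0.40, adjusted p = 0.00966)) and UGT75C1 (-1.44 (SE 0.45, adjusted p = 0.0215)) lower, beside PAP1 and PAP2, and the calls of 5MAT (-1.25 and -1.01) and UGT75C1 (-1.19 and -1.16) ended without the second wild-type or the first INO80N library.

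**Figure D5:**
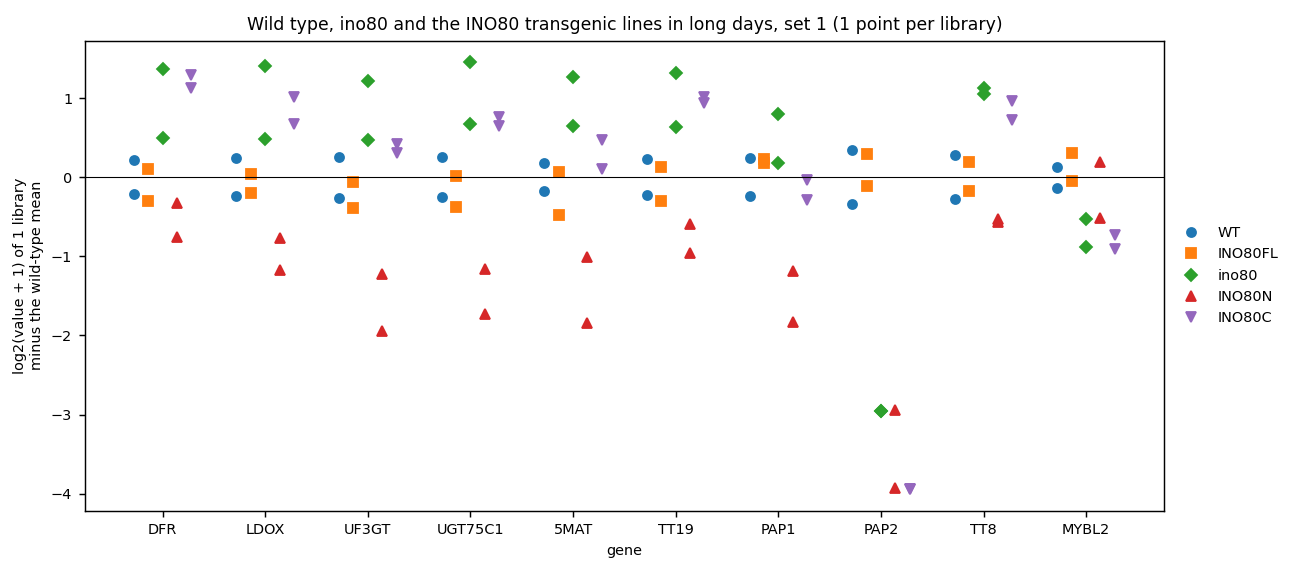
Log2(value + 1) of each long-day library of wild type, INO80FL, ino80, INO80N and INO80C minus the wild-type mean, by gene, with 1 point per library and a line at the wild-type mean. INO80N lies below wild type at the late genes and PAP1 whereas both libraries of ino80 and INO80C lie above it at the late genes, and PAP2 is at wild-type level in INO80FL alone of the 4 lines shown.

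In short days INO80N was compared with the same lines. Against ino80, PAP1 was lower, at 18.5 and 35.4 against 61.3 and 60.9 (-1.22 (SE 0.36, adjusted p = 0.0291)), and MYBL2 higher, at 1816 and 1253 against 836 and 829.6 (0.86 (SE 0.20, adjusted p = 0.00589)), 2 calls beside a background of 12.6%. Against INO80C, 1 member was called, PAP1 (-1.19 (SE 0.36, adjusted p = 0.0456); background 7.75%). PAP1 against ino80 ended without either ino80 library (-1.22 each time) or the first INO80N library (-0.77), MYBL2 without the second ino80 library (0.85) or the first INO80N library (0.59), and PAP1 against INO80C without the first INO80N (-0.74) or second INO80C library (-0.59), and it stood at -1.79 without the first INO80C library. With short-day libraries fitted apart, PAP1 against INO80C was not called (adjusted p = 0.0595) and MYBL2 was (0.63, adjusted p = 0.0163).

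Whether the line effect differed between day lengths was tested as an interaction in set 1, the short-day difference from wild type minus the long-day one. The interaction was called at 5 members in nfrkb1/2/3 (DFR, LDOX, UF3GT, 5MAT and TT19; background 5.4%), at 5 in INO80N (DFR, UF3GT, 5MAT, TT19 and PAP2; 7.11%), at 3 in INO80C (UF3GT, 5MAT and PAP2; 12.4%) and at 2 in uch1/2 (UF3GT and 5MAT; 9.74%), each positive. For ino80 no interaction was called by limma (7.36%; 7 had an unadjusted p under 0.05), nor for arp5 (0.0078%; 6 unadjusted), atx4/5;jmj24 (7.27%; 3 unadjusted) or INO80FL (0%; 2 unadjusted). All of them contain the wild-type short-day libraries, in which DFR, UF3GT and 5MAT had fewer than 8 reads each. PAP2 read 0 in every INO80C library and 0.009 to 1 in INO80N in both day lengths. Its interactions in these lines therefore come wholly or mostly from the wild-type day-length difference. Under every single library left out, UF3GT and 5MAT stayed called in nfrkb1/2/3 and 5MAT in INO80N, and the other 12 lost their call without at least 1 library.

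The late genes varied together. Across the 18 groups of set 1, the log2 mean of each of DFR, LDOX, UF3GT, TT19 and 5MAT correlated at 0.9845 to 0.9957 with the mean of the other late genes, and UGT75C1 at 0.9356. TT8 followed at 0.9671, PAP1 at 0.652, PAP2 at 0.3311 and MYBL2 at -0.1386. Most of that range is the day-length difference, and the points share libraries.

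Among 20088 other genes with a mean of at least 10, the 8 most alike over the same 18 groups were TT7 (0.9883), KAT5 (0.9863), ERO2 (0.9781), XTH7 (0.9744), AT1G33760 (0.974), AT3G44970 (0.9729), TLL1 (0.9728) and AT1G10657 (0.9713). TT7, which encodes flavonoid 3′-hydroxylase, averaged 293.7 in wild type in long days and 64.39 in short days. Over the 6 groups of set 2 the likeness was 0.022 for TT7 and between -0.3637 and 0.6354 for the other 7.

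The wider flavonoid pathway had a smaller median day-length difference than the members. The list mixes early steps with flavonol synthesis and with genes that add sugars or acyl groups, so its median is not that of the early steps. Of 17 genes from PAL1 to the side-chain acyltransferases, 16 passed the filter. In wild type 8 fell and 3 rose in short days, beside 37.6% of all genes called. The median difference was -0.35 beside -4.13 over the 10 members. The list genes F3H and UGT89C1 are overlapped by other genes at 93.83% and 99.56% of their exon length. The strand setting is not given, so reads of those partners cannot be told apart. CHS, which encodes the entry enzyme chalcone synthase, read 5867 and 7323 in long days and 2556 and 2657 in short days (-1.33 (SE 0.19, adjusted p = 6.89e-06)). FLS1, whose flavonol synthase competes with DFR for substrate, read 706 and 804 against 196 and 216 (-1.87 (SE 0.20, adjusted p = 8.87e-08)). UGT78D2, an anthocyanidin and flavonol 3-O-glucosyltransferase gene, rose from 898 and 938 to 2561 and 2634 (1.5 (SE 0.10, adjusted p = 1.29e-10)). These short-day values are of set 1. In short days of set 2, wild type read 3585 and 3303 at CHS, 920 and 895 at FLS1 and 445 and 348 at UGT78D2. FLS1 was thus above, and UGT78D2 below, the long-day wild-type libraries of set 1, a comparison without a test. UGT78D2 was lower in ino80 in short days of set 1, at 1105 and 1281 (-1.13 (SE 0.10, adjusted p = 2.60e-08)), while its difference in ino80 was 0.26 in long days and 0.02 in set 2, both without a call.

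In ino80 in short days of set 1, 5 of these 16 genes rose and 3 fell, beside 35.1% of all genes called. FLS1 rose to 634 and 722 (1.71 (SE 0.20, adjusted p = 5.53e-07)) and TT7 by 0.96 (SE 0.21, adjusted p = 0.000787), while CHS was at 0.51 (SE 0.19, adjusted p = 0.0399). In long days 6 rose and none fell in ino80 (background 28.6%). Against ino80, 14 of the 16 fell in INO80N in long days and none rose (background 25.6%), with a median of -1.08, CHS at -1.06 (SE 0.19, adjusted p = 0.000236) and UGT78D2 at -1.32 (SE 0.10, adjusted p = 7.97e-09).

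Other regulators split in direction. HY5, a bZIP factor of light signalling, rose in wild type in short days of set 1, from 270.4 and 271 to 1518 and 1398 (2.42 (SE 0.11, adjusted p = 1.08e-13)). Wild type in short days of set 2 read only 408 and 342 at HY5. In short days of set 1 HY5 read 764 and 749.9 in ino80 (-0.94 (SE 0.11, adjusted p = 4.40e-07)). TTG1, the WD40 partner, read 925 and 922 in wild type and 542 and 558 in ino80 in short days (-0.75 (SE 0.09, adjusted p = 1.47e-06)). The bHLH gene GL3 rose in ino80, at 46.3 and 39.3 against 18.8 and 23.4 (0.99 (SE 0.32, adjusted p = 0.0186)), and EGL3 was at 0.4 (SE 0.19, adjusted p = 0.103) without a call.

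Of 16 regulators outside the members, 15 passed the filter in set 1, and in ino80 in short days 3 rose and 4 fell, beside 35.1% of all genes called. MYB12, an activator of flavonol genes, rose there from 144 and 119 to 293 and 316 (1.21 (SE 0.18, adjusted p = 1.74e-05)), whereas its relative MYB111 fell in ino80 (-0.67) and further lines, to 24.5 and 33.4 in atx4/5;jmj24 against 100.1 and 86.7 (-1.67 (SE 0.24, adjusted p = 1.65e-05)). SPL9, whose protein represses anthocyanin genes, fell in ino80 in long days from 187 and 174 to 83 and 69.7 (-1.23 (SE 0.18, adjusted p = 1.63e-05)). The homeodomain gene HAT1 fell in wild type from 1118 and 1271 in long days to 434 and 518 in short days of set 1 (-1.33 (SE 0.36, adjusted p = 0.00511)). Wild type in short days of set 2 read 387 and 1261 at HAT1. In short days of set 1 HAT1 was higher in atx4/5;jmj24, at 1358 and 1244 (1.45 (SE 0.36, adjusted p = 0.00418)). It was also called higher in INO80C (1.58), INO80N (1.39), nfrkb1/2/3 (1.33) and uch1/2 (1.25), but not in ino80 (0.73). HAT1 libraries of some groups stood far apart, as at 964 and 2450 in atx4/5;jmj24 in long days. In set 2, HY5 was at 0.01 (SE 0.15, adjusted p = 0.998), TTG1 at -0.12 and FLS1 at 0.24 in ino80. Of 6 genes of the proanthocyanidin branch, which uses the same precursors in the seed coat, TT2, BAN, TT12, TT1 and TT16 were at most at 4.68 in any library, and AHA10, a proton pump gene, read 22.1 to 58.0 with a median of 37.2.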

How the data were processed

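Libraries of single-end 50-bp reads were aligned with HISAT2 2.2.0, and the authors used TAIR10 and edgeR (version not given), per the submitters' processing notes. The counter, strand setting and filters are not given in the sources used here. The deposited signal was read from its values as counts scaled to a common size within each set, so no count model was run. Members and lists were chosen with earlier results of these data known.

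Genes reaching 1 in 2 or more libraries were kept (25638 in set 1, 24458 in set 2). limma 3.58.1 (R 4.3.3) was fitted to log2(value + 1) over all libraries of a set, with 1 mean per group and a mean-variance trend (18 and 6 residual degrees of freedom). P-values were Benjamini-Hochberg adjusted over all genes and called under 0.05. Adding 1 understates changes of weak genes. Scripts were tested on simulated data. With 2 libraries per group and scaled counts, no counting intervals are given. How often the libraries of 2 groups lie apart was counted over all genes for day length only.

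Named were all members, the 8 genes most alike to the enzyme and transport genes (means of at least 10), and HY5, CHS, TTG1, EGL3 and GL3. List genes past the test with a log2 difference of at least 1 in a comparison could be named, and some of them are, chosen with their values known. CCA1, TOC1, AT4G14100 and the proanthocyanidin genes were added after their values were seen. Promoters and overlaps come from RefSeq TAIR10.1. Alternatives were pseudocounts of 0.5 and 5, other filters and scalings, a replicate block, day lengths fitted apart and each library left out. A marker list is not reported here.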

Additional observations from a re-analysis of the deposited data

Results flagged for a closer look

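The difference between a line and wild type changed with day length at 15 combinations of gene and line, by limma's interaction test in set 1 (short-day minus long-day difference on the log2 scale). In nfrkb1/2/3 the change was 4.78 at UF3GT (SE 0.89, adjusted p = 0.00229), 3.66 at DFR (adjusted p = 0.0123), 2.95 at 5MAT (0.00264), 2.84 at LDOX (0.0292) and 2.81 at TT19 (0.0384). In INO80N it was 3.81 at UF3GT (adjusted p = 0.00877), 3.19 at 5MAT (0.000767), 2.98 at DFR (0.0345), 2.76 at TT19 (0.0342) and 2.38 at PAP2 (0.0182). In INO80C it was 3.01 at UF3GT (0.0283), 2.12 at 5MAT (0.0151) and 1.93 at PAP2 (0.0414), and in uch1/2 it was 3.5 at UF3GT (0.014) and 1.85 at 5MAT (0.0372). PAP2 read 0 in every INO80C library, so its value there is the wild-type day-length difference with the sign reversed. In INO80N, where PAP2 read 0.009 to 1, most of its value is that same difference.

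Leaving out the first short-day wild-type library lowered DFR to 3.31 in nfrkb1/2/3 and 2.63 in INO80N, and UF3GT to 3.29 in INO80N, 2.49 in INO80C and 2.98 in uch1/2, all without a call. Without the second short-day library of the line, 5MAT was at 1.39 in INO80C, TT19 at 1.91 in INO80N and LDOX at 2.46 in nfrkb1/2/3, also uncalled. The interactions cannot be checked in set 2, which has no long-day libraries in the samples used here.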

How the results depend on the processing

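No called difference of a member turned sign under any alternative run, and a sign change between values called under neither setting was not counted. Of 470 member differences, 466 kept their side of the threshold with a pseudocount of 0.5, 453 with 5, 446 with no filter but a value above 0, 461 with equal library totals and 460 with quantile normalization. With the filter at 10 in 2 libraries 453 of 464 did, and PAP2 of set 2 gave no value. With day lengths fitted apart 208 of 240 did, 25 gained a call and 7 lost one (TT8 in ino80 and atx4/5;jmj24, TT19 in arp5 and atx4/5;jmj24, DFR in INO80FL against ino80 and PAP1 in INO80N against INO80C in short days, and MYBL2 in INO80N against ino80 in long days). Equal totals shifted the median of all genes by -0.124 to 0.185, and the direction of every called member held.

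The larger moves in the number of members called are listed here and below, and smaller moves are left out. Day lengths fitted apart gave 9 in ino80, 4 in atx4/5;jmj24, 7 in INO80N and 6 in INO80C against wild type in long days, and 9 in INO80FL against ino80. The filter at 10 gave 2 in INO80N against INO80C in short days and 2 in uch1/2 of set 2, and equal totals gave 5 in ino80 in long days and 2 in INO80N against INO80C in short days. With no filter, long-day counts were 2 in INO80FL against ino80 and 5 in INO80N against INO80C, short-day counts were 1 in INO80N against ino80, 0 in INO80N against INO80C and 0 in uch1/2 of set 2, and interactions were 3 in nfrkb1/2/3, 1 in uch1/2 and 3 in INO80N. A pseudocount of 0.5 gave 1 interaction in ino80. A pseudocount of 5 gave 1 in arp5 and 1 in atx4/5;jmj24 in long days, 0 in INO80N against INO80C in short days, and interactions of 1 in ino80, 1 in uch1/2 and 1 in INO80C. Quantile normalization gave 1 in arp5 in long days, 1 interaction in uch1/2 and 2 in uch1/2 of set 2. The cause was not tested.

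Repeat numbers were not taken as pairing the samples, which needed a correlation of deviations over 0.1 in every group pair: it was over 0.1 in 12 of 153 pairs of set 1 (-0.328 to 0.267) and 10 of 15 of set 2 (-0.139 to 0.405). With the replicate block the counts were 2 in INO80N against INO80C in short days, 2 in uch1/2 of set 2, and 1 interaction each in ino80 and atx4/5;jmj24.

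With 1 library left out, calls against wild type in long days were 1 to 3 in ino80, 1 to 4 in INO80N and 1 to 2 in INO80C. In short days of set 1 they were 2 to 4 in arp5, 4 to 6 in atx4/5;jmj24, 0 to 2 in INO80FL and 1 to 6 in INO80N, and in set 2 they were 0 to 1 in nfrkb1/2/3 and 0 to 2 in uch1/2. Against ino80 they were 1 to 4 for INO80FL and 4 to 8 for INO80N in long days, and 1 to 8 and 0 to 2 in short days. INO80N against INO80C gave 2 to 3 in long days and 0 to 2 in short days. Interactions were 2 to 4 in nfrkb1/2/3, 0 to 1 in uch1/2, 1 to 5 in INO80N and 0 to 3 in INO80C. A group left with 1 library is assumed to vary like the other groups. Depth limits PAP2 everywhere and the late genes of wild type in short days of set 1, where a value of 1 is about 1 read.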
